A study of Harpegnathos saltator with 36 samples.

Results

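A set of 70 genes of the ant Harpegnathos saltator stood higher in gamergate brains and lower in gamergate ovaries, of 12654 genes in the count tables of both tissues. Gamergates are workers that have become egg-laying pseudo-queens. Levels were taken as CPM, the count of a gene scaled by the total count of its library, and 7785 genes had a mean of at least 5 CPM over the 12 libraries of each tissue. A gene was included where, on the log2(CPM + 1) scale, the lowest of 4 gamergate brains lay above the highest of 4 worker brains, and the highest of 4 gamergate ovaries lay below the lowest of 4 worker and 4 revertant ovaries. The rule would have kept the 100 genes with the largest smaller gap and left out 2 insulin receptor genes, but neither limit applied, because 70 genes met it and 0 of the 2 receptor genes did. The genes were chosen by the gamergate against worker values in both tissues and the gamergate against revertant values in the ovary, so those values are given as a description. Calls by a test of these contrasts themselves are printed only as counts beside the share over all genes, and no p-value is given. A later fit that holds library size as a term also draws on the worker brains. Its adjusted p-values are in part fixed by the choice of genes, and no support is read from those that pass.

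Each library came from 1 tissue of 1 ant about 6 months old, either the central brain, dissected free of the optic lobes, or the whole ovary, with 4 libraries per caste and tissue. Whether brain and ovary libraries with the same number came from the same ant is not given in the sources used here. Workers and gamergates came from colonies in which a queenless group had been left to duel, with gamergate status judged after 3 months, and no mutant allele or agent was given to any of them. Revertants were gamergates that had first been isolated singly and fed constantly for some weeks. They were then moved into a colony with established reproductives, where they were policed and stopped laying. Their isolation, feeding and colony thus differed together with their caste and cannot be told apart from it. Fat body was not analysed here.

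In this species a worker keeps the ability to mate and to lay, and an ovary that is laying holds long chains of growing egg chambers, whose nurse cells and follicle cells supply and wrap the oocyte. A resting ovary holds mostly the germ line stem cell region, early chambers and the sheath tissues around them. The central brain is made mostly of neurons and glia, and it also contains the neurosecretory cells that release insulin and other hormones. In such bulk samples fewer cells of a type and less RNA per cell cannot be told apart.

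Total counts ranged from 1339043 to 12917125 in the brain libraries and from 1663266 to 23882325 in the ovary libraries. All 4 gamergate ovaries had totals over 3500000, against 1 of 4 worker and 2 of 4 revertant ovaries. Library size thus goes in part with caste in the ovary. Median ovary fold changes from a fit with a library size term are given in the last section. The ovary values of single genes below are not adjusted for library size. Brain libraries fell into 2 size classes. All 4 gamergate brains and workers 2 and 4 had totals under 3500000, and all 4 revertant brains and workers 1 and 3 had totals over it. The classes stood apart within the worker caste: both smaller worker libraries lay above both larger ones in 55.0% of the 7785 genes and below both in 23.6%. Among the 70 genes these orders were found in 30 (42.9%) and 10 (14.3%). The size class is therefore mixed with caste between gamergate and revertant brains, and results on that pair are therefore set beside those of a fit of all 12 brain libraries that holds the size class as a term. Summed fat body markers (6 genes, vitellogenin among them, none at 0 throughout) reached 16658 to 64070 CPM in gamergate brains, against 217 to 2372 in worker and 442 to 2924 in revertant brains. Summed neuronal markers (8 genes, found by name) were at 2505 to 2839 CPM in gamergate, 2907 to 4338 in worker and 3899 to 4747 in revertant brains. They include CUGBP Elav-like family members 2 and 4, and member 2 was higher in worker ovary (388 CPM) than in worker brain (91.7 CPM). In the ovary, summed muscle markers (6 genes) were at 51.7 to 65.9 CPM in gamergates, 168 to 1595 in workers and 172 to 695 in revertants. None of these marker genes was among the 70. A gene annotated as myosin heavy chain of skeletal muscle, which was not in the muscle sum, was among them. The part of such marker differences in the values below was not tested.

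The 70 genes were a small share of the genes that met either condition. Gamergate brains lay above all worker brains for 332 genes (4.26% of 7785), of which the 70 were 21.1%. Gamergate ovaries lay below all worker and revertant ovaries for 1887 genes (24.2%), of which the 70 were 3.71%. The brain gap ran from just above 0 to 0.72 and the ovary gap from 0.01 to 1.54 on the log2 scale, so the brain condition was mostly met by a narrow margin. At the edge, the gene for the kinase-interacting protein STK11IP (LOC105191343) was inside with a highest worker brain of 131.1 CPM and a lowest gamergate brain of 131.3 CPM. Just outside was the gene of the chromatin remodeller ATRX (LOC105185297), with 621 CPM in the highest worker brain and 620 CPM in the lowest gamergate brain. The choice depended strongly on scaling. With library sizes scaled by TMM (trimmed mean of M values), 50 genes met the rule, and 32 of the 70 (45.7%) were among them.

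**Figure D1:**
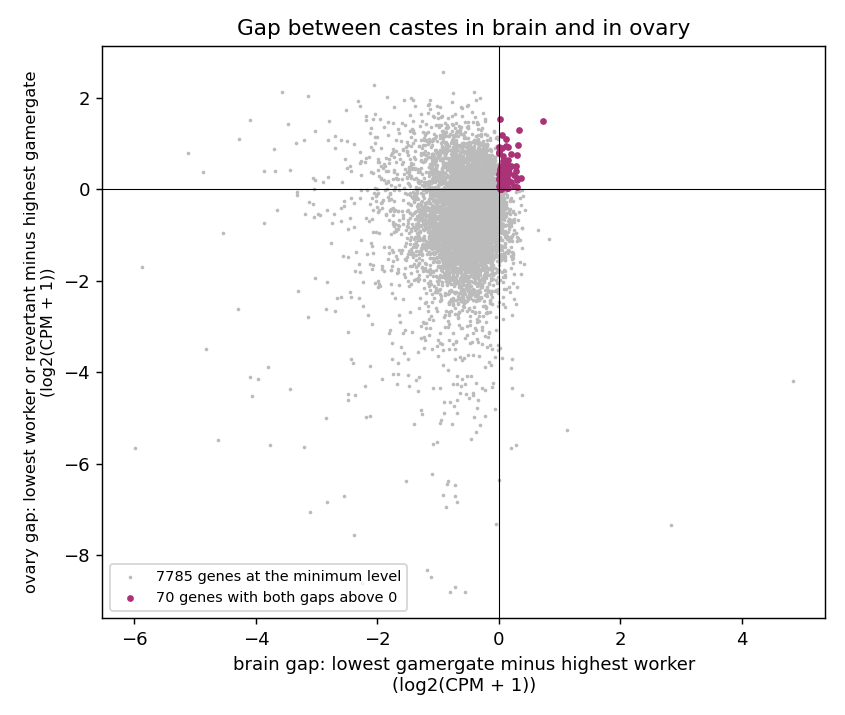
Each point is a gene; the x axis is the brain gap (lowest gamergate minus highest worker) and the y axis the ovary gap (lowest worker or revertant minus highest gamergate), both in log2(CPM + 1) units. The 70 genes with both gaps above 0 lie in the upper right, most of them close to the vertical line, and centrosomal protein of 78 kDa stands out with gaps of 0.72 in the brain and 1.49 in the ovary.

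The differences were modest in the brain and wide in the ovary. Mean gamergate over mean worker level in the brain ran from 1.08 to 2.33, with a median of 1.28. It reached 1.5 in 9 of the 70 genes and 2 in 4 of them, which were a HARBI1-like nuclease, the aminopeptidase Dip-B, peptidoglycan-recognition protein 2 and centrosomal protein of 78 kDa. In the ovary the ratio of mean worker to mean gamergate level ran from 1.36 to 50.04, with a median of 2.23, and was at least 4 in 14 genes. The ratio of revertant to gamergate ovaries had a median of 2.17 and a range of 1.34 to 22.2. With edgeR's quasi-likelihood test, 4 of 69 genes tested passed an adjusted p (Benjamini-Hochberg) under 0.05 as higher in gamergate than in worker brains, where 0.33% of all genes did. In the ovary 63 of 69 were lower in gamergates than in workers (28.9% of all genes) and 65 of 69 were lower than in revertants (29% of all genes). The rule used these 3 contrasts, so the counts were conditioned by the choice of genes and nothing is read from them.

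Between tissues, the order of levels differed with caste. Mean log2(CPM + 1) was higher in brain than in ovary for 27 of the 70 genes in workers (36.1% of all 7785), for 62 in gamergates (45.9%) and for 25 in revertants (32.4%). These orders follow in part from the rule, which raised the gamergate brain and lowered the gamergate ovary, and tissue and sequencing lane go together. The median level of the 70 was 118 CPM in the brain and 105 CPM in the ovary, against 50.7 and 64.4 CPM over the 7785 genes.

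**Figure D2:**
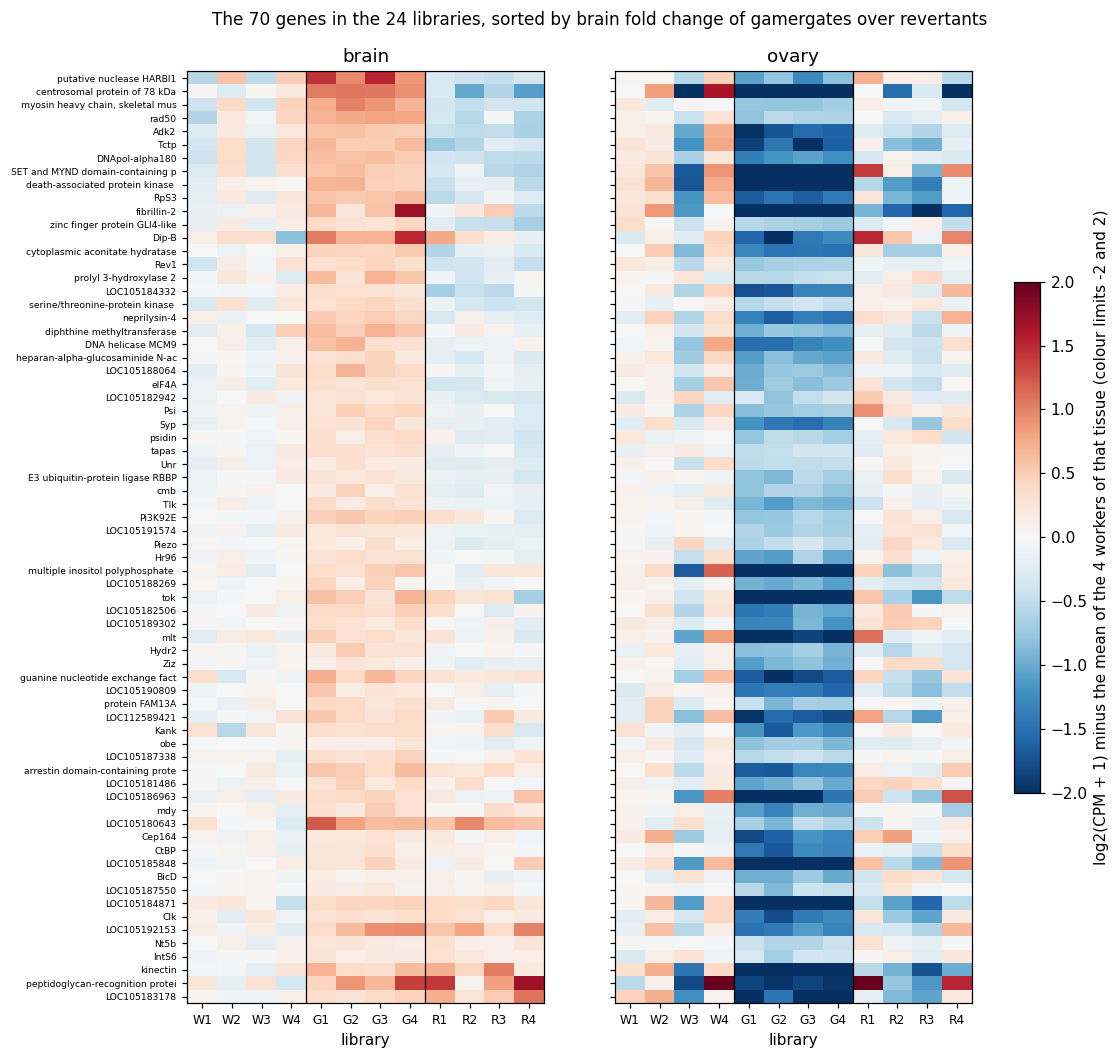
Each row is one of the 70 genes and each column a library (W worker, G gamergate, R revertant); colour is log2(CPM + 1) minus the mean of the 4 workers of the same tissue. The gamergate columns are red in the brain and blue in the ovary because the rule chose them so; the revertant brain columns range from blue in the upper rows to red in the lowest rows, and worker ovary 3 is the lowest worker or revertant ovary for 36 of the 70 genes.

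Revertant brains were not used by the rule, and they tell how these genes stood after a gamergate had stopped laying. The gamergate brains of that comparison were chosen as high, so its direction is not independent of the choice. In edgeR's quasi-likelihood test, 33 of the 70 genes (47.1%) were higher in gamergate than in revertant brains at an adjusted p under 0.05, beside 27.4% of all genes tested, and 1 (1.43%) was lower, beside 29.9%. The median log2 fold change was 0.21 for the 70 and 0.00 for all genes. All 4 revertant brains lay below all 4 gamergate brains in CPM for 45 of the 70 genes, beside 37.6% of the 7785, and above them for 0, beside 16.9%. When the size class was a term, 5 of the 70 genes were called, all of them higher in gamergates, where 41 of 9148 genes (0.448%) were called higher and 32 lower. The 5 genes called were centrosomal protein of 78 kDa, adenosine kinase 2, neprilysin-4, cytoplasmic aconitase and a guanine nucleotide exchange factor for Rab-3A. The median log2 fold change of the 70 was 0.43 in that fit, with 66 above 0, against 0.21 and 56 above 0 without the term. That fit separates size from caste only through the worker brains, which the rule used. By the rule, gamergates lay above the smaller workers for all 70 genes (median log2(CPM + 1) difference 0.31, all genes -0.09). The calls and fold changes of that fit are thus in part fixed by the choice of genes. Nothing is read from their direction or from which genes passed.

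No member passed the test between revertant and worker brains. In edgeR's test 0 of the 70 genes passed between them (0% of 9360 genes passed in either direction). At an unadjusted p under 0.05 there were 13 of 70 (16.2% of all genes). DESeq2 called 2, of which 1 was higher and 1 lower in revertants (0.365% and 0.119% of all genes). The mean revertant level was above the mean worker level for 29 genes and below it for 41. All 4 revertant brains lay below all 4 worker brains in 11 genes (7% of all) and above them in 6 (2.95%). Against the 2 larger worker libraries alone, the median difference of revertants in log2(CPM + 1) was -0.02, with 31 genes above 0 and 39 below. The comparison shares with the rule the worker brains, which were chosen as low.

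Revertant and worker ovaries stood on the same side of the rule, and their difference was not used by it. In edgeR's test 0 of 70 genes passed (0% of 8667 genes in either direction), with 6 of 70 at an unadjusted p under 0.05 (4.35% of all genes). DESeq2 called 1 as lower in revertants (0.0921% of all genes) and 0 as higher (0.176%). All 4 revertant ovaries lay below all 4 worker ovaries for 1 gene (1.32% of all) and above them for 0 (0.565%).

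The leading gene, with the largest smaller gap, was that of centrosomal protein of 78 kDa (LOC105188568), a protein of mature centrioles that in mammals takes part in the assembly of cilia. In the brain it was at 1047, 863, 1054 and 1173 CPM in workers 1 to 4, at 2103, 2164, 2137 and 1938 CPM in gamergates 1 to 4 and at 828, 504, 686 and 477 CPM in revertants 1 to 4. The 3 castes did not overlap: gamergates were highest, workers in between and revertants lowest. Its log2 fold change from revertants to gamergates was 1.57 (SE 0.16, adjusted p = 1.9e-05 by edgeR), and 1.87 (adjusted p = 0.0075) with size class in the fit. From workers to revertants the brain log2 fold change was -0.62 (SE 0.20, adjusted p = 0.30 by edgeR). In the ovary it was at 37.5, 67.2, 5.98 and 121 CPM in workers, at 0.886, 1.49, 0.963 and 1.28 CPM in gamergates and at 37.3, 12.6, 30.2 and 6.71 CPM in revertants. The gamergate ovaries rested on 8 to 23 reads each, and the 8 other ovaries spread from 5.98 to 121 CPM above them. Cep164 (LOC105186198), a gene named for another centriole protein, was the other member of this kind, with mean brain levels of 554, 645 and 579 CPM in workers, gamergates and revertants and a brain log2 fold change over revertants that did not pass the test (-0.01, adjusted p = 0.88 by edgeR).

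Grouped by hand as signalling genes of the insulin and inositol kind were 3 of the 70, of which STK11IP is named for neither. Pi3K92E (LOC105189236) encodes a catalytic subunit of phosphatidylinositol 3-kinase, which carries the signal of insulin receptors in Drosophila. Its brain levels were 52.4, 51.4, 51.8 and 56.0 CPM in workers, 74.1, 77.7, 72.2 and 73.6 CPM in gamergates and 66.1, 61.9, 54.2 and 43.7 CPM in revertants. Workers and gamergates each kept to a narrow range, the larger and smaller worker libraries did not separate, and the revertants spread from below the workers to between the castes. The log2 fold change over revertants was 0.22 (SE 0.13) and did not pass (adjusted p = 0.16 by edgeR), nor did it with size class in the fit (0.42, adjusted p = 0.36). In the ovary it was at 122, 113, 122 and 114 CPM in workers, 68.7, 69.5, 79.0 and 72.5 CPM in gamergates and 117, 142, 127 and 93.5 CPM in revertants. Gamergate ovaries were the lowest, and workers lay within the range of revertants. Pi3K92E was not among the genes that met the rule under TMM scaling. It was the only 1 of 20 named genes of insulin, TOR and MAPK signalling in the set. Of these 20, 9 passed as higher and 7 as lower in gamergate than in revertant brains, beside 27.4% and 29.9% of all genes. Their median log2 fold change was 0.23 in that contrast, which is mixed with library size. Between revertants and workers 0 of the 20 passed in either tissue. Multiple inositol polyphosphate phosphatase 1 (LOC105184017), an enzyme that removes phosphates from inositol phosphates, had mean ovary levels of 46.96 CPM in workers, 4.46 CPM in gamergates and 35.1 CPM in revertants, and its brain difference from revertants did not pass (0.20, adjusted p = 0.13 by edgeR). STK11IP, at the edge of the set, was higher in gamergate than in revertant brains (0.52, adjusted p = 0.00050 by edgeR), but not with size class in the fit (0.21, adjusted p = 0.51).

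**Figure D3:**
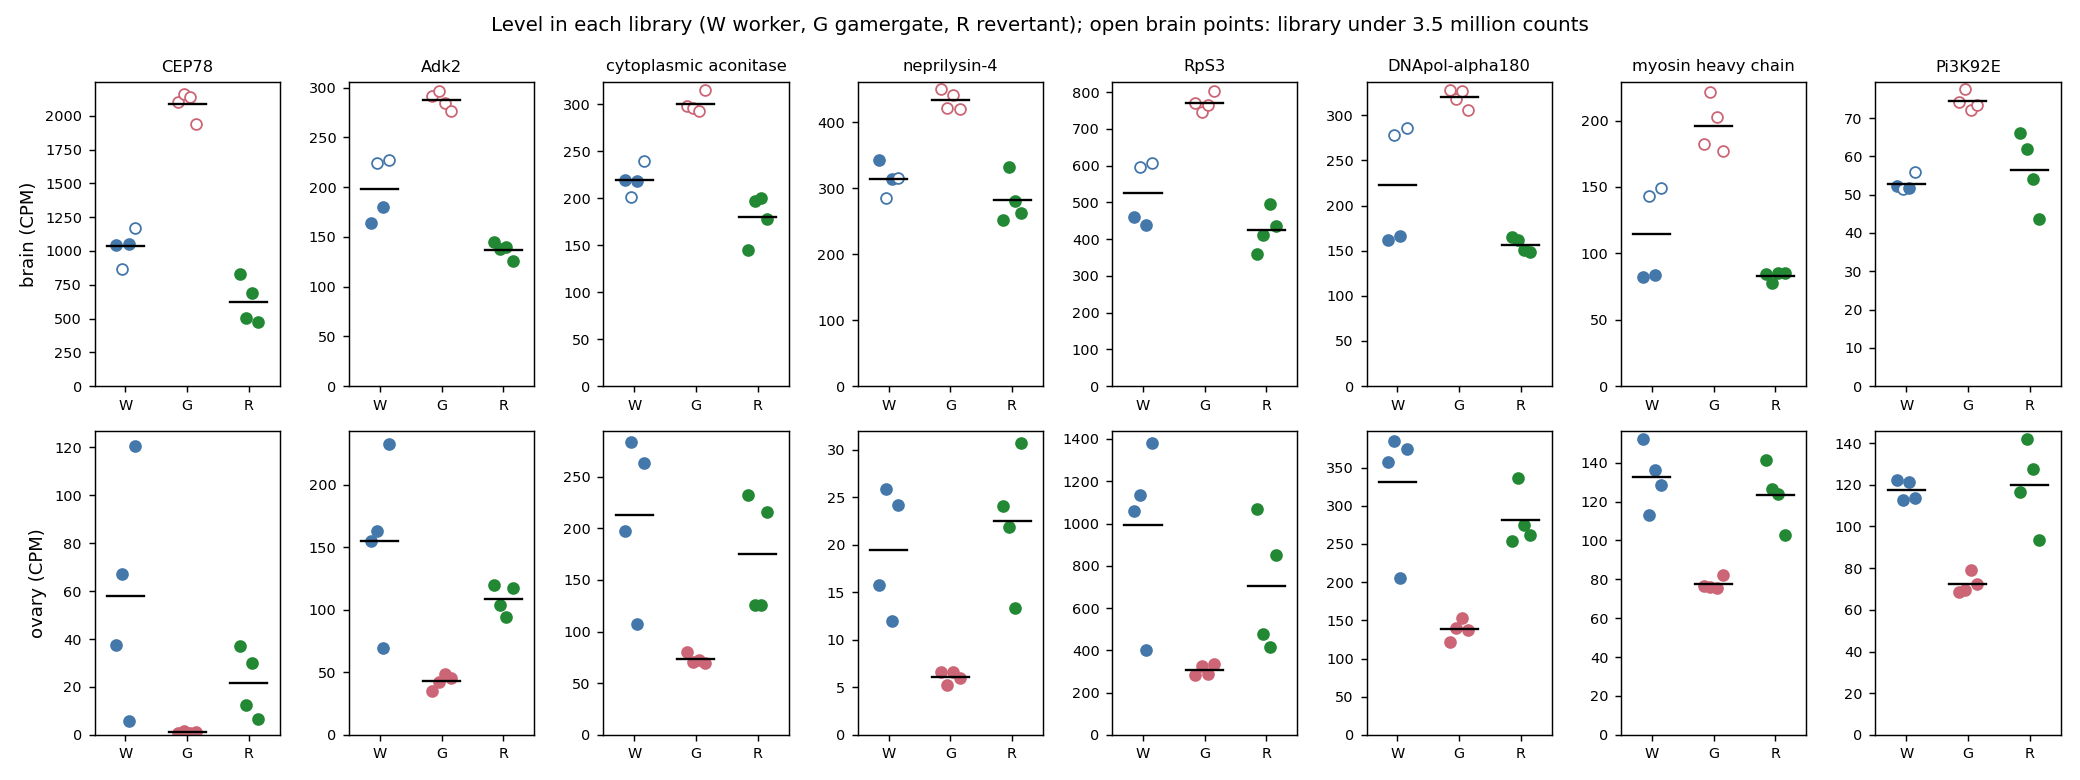
Levels (CPM) of 8 genes in every brain library (upper row) and ovary library (lower row) by caste; points are libraries, bars are means, and open points in the upper row are libraries with under 3500000 counts. In all 8 genes the gamergates lie above the workers in brain and below workers and revertants in ovary, and for DNApol-alpha180 and myosin heavy chain the 2 smaller worker libraries (open) lie well above the 2 larger ones.

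Metabolic enzymes numbered 7, and 3 of them were higher in gamergate than in revertant brains, beside 27.4% of all genes. With size class in the fit 2 of the 7 passed, beside 0.448% of all genes called higher. Adenosine kinase 2 (Adk2, LOC105189575) converts adenosine into AMP. Its brain levels were 164, 224, 180 and 227 CPM in workers, 291, 297, 285 and 277 CPM in gamergates and 145, 138, 140 and 125 CPM in revertants. The castes did not overlap, and the smaller worker libraries, 2 and 4, were above the larger ones. The log2 fold change over revertants was 0.90 (SE 0.07, adjusted p = 4.5e-06 by edgeR), and 0.75 (adjusted p = 0.0092) with size class in the fit. In the ovary Adk2 was at 155, 163, 69.2 and 233 CPM in workers, 35.2, 42.4, 48.5 and 45.9 CPM in gamergates and 120, 104, 93.9 and 117 CPM in revertants. Every gamergate ovary was below every other ovary, of which worker 3 was the lowest.

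Cytoplasmic aconitate hydratase (LOC105188943) turns citrate into isocitrate, and its mammalian counterpart also binds RNA when iron is scarce. In the brain it was at 219, 202, 219 and 240 CPM in workers, 298, 296, 292 and 315 CPM in gamergates and 145, 197, 200 and 178 CPM in revertants. Revertants lay below all workers, and larger and smaller worker libraries had nearly the same mean (219 and 221 CPM). Over revertants the log2 fold change was 0.57 (SE 0.09, adjusted p = 0.00038 by edgeR), and 0.81 (adjusted p = 0.029) with size class in the fit. Its ovary levels were 197, 283, 107 and 264 CPM in workers, 80.4, 71.0, 72.7 and 69.9 CPM in gamergates and 233, 126, 126 and 216 CPM in revertants. Workers and revertants overlapped there. Heparan-alpha-glucosaminide N-acetyltransferase (LOC105181483), a lysosomal enzyme of heparan sulfate breakdown, was the third to pass (0.39, adjusted p = 0.00094 by edgeR), and with size class in the fit it did not (0.52, adjusted p = 0.056). Among the other 4, Nt5b, mdy, Hydr2 and an abhydrolase (LOC105184871), the brain log2 fold change over revertants lay between -0.16 and 0.16. The abhydrolase had an ovary ratio of workers to gamergates of 14.98.

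All 5 genes of protein synthesis were higher in gamergate than in revertant brains, beside 27.4% of all genes and 47.1% of the 70. The 70 were chosen for high gamergate brains and grouped by hand, so no enrichment is read from the share of this or any other group. With size class in the fit 0 of the 5 passed. In that fit 0.448% of all genes were called higher, so no loss is read from such counts in any group. Ribosomal protein S3 (RpS3, LOC105182871), a protein of the small ribosomal subunit, was at 460, 596, 439 and 608 CPM in worker, 770, 745, 764 and 804 CPM in gamergate and 359, 410, 494 and 436 CPM in revertant brains. Gamergates lay above all other brains, and the revertants overlapped the 2 larger worker libraries. Its log2 fold change over revertants was 0.70 (SE 0.08, adjusted p = 5.3e-05 by edgeR). With size class in the fit it was 0.52 and did not pass (adjusted p = 0.072). Its ovary levels were 1061, 1133, 399 and 1382 CPM in workers, 285, 324, 286 and 335 CPM in gamergates and 1068, 479, 417 and 850 CPM in revertants. RpS3 was the only 1 of 65 named ribosome genes in the set. Of the 65, 58 passed as higher and 3 as lower in gamergate than in revertant brains, beside 27.4% and 29.9% of all genes (median log2 fold change 0.57). Each of the other ribosome genes on the list failed at least one of the 2 non-overlap conditions.

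Translationally-controlled tumor protein (Tctp, LOC105190117) supports growth through the TOR pathway in Drosophila. It measured 245, 408, 247 and 432 CPM in worker, 510, 456, 455 and 499 CPM in gamergate and 191, 214, 278 and 253 CPM in revertant brains. The smaller worker libraries stood at 408 and 432 CPM, close under the gamergates, and the larger ones within the revertant range. Its log2 fold change over revertants was 0.87 (SE 0.10, adjusted p = 4.5e-05 by edgeR), and 0.35 (adjusted p = 0.30) with size class in the fit. In the ovary its levels were 669, 626, 241 and 953 CPM in workers, 151, 205, 132 and 178 CPM in gamergates and 600, 313, 285 and 491 CPM in revertants. Gamergate ovaries were again below all others. The helicase eIF4A (LOC105190384), which unwinds mRNA leaders, had mean brain levels of 1198 CPM in workers, 1470 CPM in gamergates and 1016 CPM in revertants. The RNA-binding protein Unr and diphthine methyltransferase, which acts on elongation factor 2, were higher than in revertant brains by 0.28 and 0.41 on the log2 scale, and by 0.25 and 0.07, short of the threshold, with size class in the fit.

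The 5 genes of DNA replication and repair were likewise all higher in gamergate than in revertant brains, beside 27.4% of all genes and 47.1% of the 70. The catalytic subunit of DNA polymerase alpha (DNApol-alpha180, LOC105182377), which starts new DNA strands, was at 162, 279, 166 and 286 CPM in worker, 328, 319, 327 and 306 CPM in gamergate and 165, 161, 151 and 149 CPM in revertant brains. The worker libraries split by size: the larger ones were at or next to the level of revertants, and the mean of gamergates was 1.13 times that of the smaller ones. Over revertants the log2 fold change was 0.86 (SE 0.07, adjusted p = 5.1e-06 by edgeR), and 0.32 (adjusted p = 0.17) with size class in the fit. In the ovary it was at 358, 385, 205 and 375 CPM in workers, 122, 140, 153 and 137 CPM in gamergates and 254, 336, 274 and 262 CPM in revertants. The gamergates did not overlap either caste. Rad50 (LOC105192388), part of the complex that holds broken DNA ends, differed from revertants by 0.97 (adjusted p = 4.3e-05 by edgeR), and the helicase MCM9 (LOC105191900) by 0.40 (adjusted p = 0.011), while the polymerase Rev1 and the tousled-like kinase Tlk differed by 0.56 and 0.25. With size class in the fit none of the 5 passed, beside 0.448% of all genes called higher.

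Among 5 genes of peptidases and the extracellular matrix, 2 were higher in gamergate than in revertant brains, beside 27.4% of all genes. With size class in the fit 1 was, beside 0.448% of all genes. Neprilysin-4 (LOC105191206) belongs to the metallopeptidases that degrade peptides outside the cell. It measured 343, 285, 315 and 316 CPM in worker, 451, 422, 442 and 420 CPM in gamergate and 251, 333, 280 and 263 CPM in revertant brains. Gamergates were highest, and workers and revertants overlapped. Over revertants the log2 fold change was 0.45 (SE 0.09, adjusted p = 0.0014 by edgeR), and 0.83 (adjusted p = 0.023) with size class in the fit. In the ovary, where it was low, it was at 15.8, 25.8, 12.0 and 24.2 CPM in workers, 6.65, 5.23, 6.57 and 6.03 CPM in gamergates and 24.05, 21.9, 13.3 and 30.7 CPM in revertants. The second was prolyl 3-hydroxylase 2 (LOC105190225), a collagen-modifying enzyme, with a difference of 0.56 (adjusted p = 0.0048 by edgeR), which did not pass with size class in the fit (0.80, adjusted p = 0.15).

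Fibrillin-2 (LOC105189278), a microfibril component, was higher in ovary than in brain in workers and revertants, with mean levels of 297 and 93.7 CPM in ovary against 15.8 and 16.7 CPM in brain, but not in gamergates, at 25.7 CPM in ovary and 30.6 CPM in brain. Its ovary levels were 321, 482, 118 and 266 CPM in workers, 24.7, 26.1, 25.6 and 26.5 CPM in gamergates and 138, 87.7, 61.4 and 87.3 CPM in revertants. Gamergates were nearly equal to each other, and revertants lay between gamergates and workers except for the overlap with worker 3. Its log2 fold change from worker to revertant ovaries was -1.58 (SE 0.38), which did not pass (adjusted p = 1.0 by edgeR). In the brain it was at 14.01, 14.5, 16.9 and 17.9 CPM in workers, 25.5, 18.7, 23.9 and 54.2 CPM in gamergates and 14.9, 18.6, 22.5 and 10.7 CPM in revertants, where gamergate 4 was far above every other brain. The brain difference from revertants did not pass in either fit (0.69, adjusted p = 0.084 by edgeR, and 0.87, adjusted p = 0.49, with size class in the fit). Dip-B (LOC105190675), an aminopeptidase, was low in the brain, where each of the 6 smaller libraries gave 2 to 20 reads, and its difference from revertants did not pass (0.63, adjusted p = 0.11 by edgeR). A tolloid-like protease gene (tok, LOC105190811) and its neighbour LOC105190809, next to each other in the RefSeq gene table of assembly Hsal_v8.6, were both in the set.

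Genes of RNA binding, transcription and chromatin formed the largest group with a role, with 10 members. Of these, 7 were higher in gamergate than in revertant brains, beside 27.4% of all genes and 47.1% of the 70. The 7 were the SET and MYND domain protein SMYD4 (LOC105185750), which rose by 0.74 (adjusted p = 0.00044 by edgeR), the zinc finger protein GLI4-like (LOC105188663) by 0.65 (adjusted p = 0.0011), the RNA-binding proteins Syp (LOC105192134) by 0.33 (adjusted p = 0.0017) and Psi, the ubiquitin ligase RBBP6, the tudor domain protein tapas (LOC105182385) by 0.28 (adjusted p = 0.0081) and the nuclear receptor Hr96 (LOC105184804) by 0.21 (adjusted p = 0.023). Syp binds mRNAs in neurons and at the synapse of Drosophila, tapas acts in germ line granules there, and Hr96 is a sensor of foreign compounds and dietary lipids in the same species. Clk, the circadian transcription factor, and the corepressor CtBP did not pass, at -0.10 and -0.02, and neither did the Integrator subunit IntS6 at -0.18. SMYD4 had a mean ovary level of 60.8 CPM in workers, 8.37 CPM in gamergates and 78.4 CPM in revertants. With size class in the fit 0 of the 10 passed, beside 0.448% of all genes called higher.

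Of 9 genes of the cytoskeleton and membrane traffic, 2 were higher in gamergate than in revertant brains, beside 27.4% of all genes. A different 1 passed with size class in the fit, beside 0.448% of all genes called higher. A gene annotated as myosin heavy chain of skeletal muscle (LOC105183261) was at 81.8, 143, 83.4 and 149 CPM in worker, 182, 222, 203 and 177 CPM in gamergate and 84.3, 77.9, 85.4 and 84.8 CPM in revertant brains. Its larger worker libraries were at the level of revertants, and its smaller ones were between these and the gamergates. The log2 fold change over revertants was 1.07 (SE 0.08, adjusted p = 3.1e-06 by edgeR), and 0.49 (adjusted p = 0.069) with size class in the fit. Summed muscle markers overlapped among castes in the brain, at 33.3 to 558 CPM in workers, 64.4 to 370 in gamergates and 40.8 to 93.4 in revertants. In the ovary the gene was at 152, 113, 136 and 128 CPM in workers, 76.5, 76.2, 75.8 and 82.1 CPM in gamergates and 141, 126, 124 and 103 CPM in revertants. Of 16 named muscle genes it was the only 1 in the set. Of these 16, 12 passed as lower and 0 as higher in gamergate than in worker ovaries, beside 28.9% and 29.4% of all genes. The second, cmb, rose by 0.26, and did not pass with size class in the fit (0.48, adjusted p = 0.12).

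Kinectin (LOC105185477), a membrane anchor of the motor kinesin, went another way in revertants. Its brain levels were 37.6, 38.2, 34.6 and 47.05 CPM in workers, 63.9, 50.6, 49.5 and 61.0 CPM in gamergates and 64.4, 52.5, 81.6 and 44.7 CPM in revertants. Revertants overlapped gamergates, and 3 of 4 lay above every worker. The log2 fold change from workers to revertants was 0.75 (SE 0.18), which did not pass (adjusted p = 0.30 by edgeR). Its difference from gamergates did not pass in either fit (gamergate over revertant -0.28, adjusted p = 0.19 by edgeR, and -0.27, adjusted p = 0.72, with size class in the fit). Its ovary levels were 626, 835, 184 and 660 CPM in workers, 82.6, 93.2, 96.6 and 95.7 CPM in gamergates and 341, 260, 150 and 253 CPM in revertants. The ovary log2 fold change from workers to revertants was -1.10 (adjusted p = 1.0 by edgeR). The guanine nucleotide exchange factor for Rab-3A (LOC105182363), a regulator of vesicle release, differed from revertant brains by 0.15 and did not pass (adjusted p = 0.16 by edgeR). With size class in the fit the difference was 0.79 (adjusted p = 0.043 by edgeR). That fit draws on the worker brains the rule used, and the gamergate mean was 1.68 times that of the smaller workers. No difference from revertants is therefore read from it. The gene did not meet the rule under TMM scaling. The remaining members were BicD, which links cargo to dynein in Drosophila, Kank, Ziz, mlt and FAM13A.

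Of 7 other named genes, 3 were higher in gamergate than in revertant brains, beside 27.4% of all genes. With size class in the fit 0 of them passed, beside 0.448% of all genes called higher. Death-associated protein kinase related (LOC105190746), a serine/threonine kinase, was at 24.6, 30.97, 30.1 and 29.1 CPM in worker, 45.8, 46.4, 40.02 and 39.4 CPM in gamergate and 20.6, 25.5, 25.1 and 19.4 CPM in revertant brains. The worker and revertant brains overlapped only at worker 1. Its log2 fold change over revertants was 0.74 (SE 0.12, adjusted p = 0.00040 by edgeR), and 0.84 (adjusted p = 0.081) with size class in the fit. In the ovary it was at 52.1, 67.6, 12.2 and 71.4 CPM in workers, 4.18, 2.99, 4.23 and 4.37 CPM in gamergates and 28.3, 18.9, 15.8 and 39.8 CPM in revertants. A gene of the HARBI1 nuclease kind (LOC105181342), a kind derived from transposons, whose counts are uncertain where similar copies exist, had the largest brain log2 fold change over revertants of the 70 (1.60, SE 0.20, adjusted p = 7.2e-05 by edgeR). It was low, with 15 to 71 reads per brain library, and its fold change with size class in the fit was 0.64 (adjusted p = 0.43). Piezo, a stretch-activated channel, rose by 0.21, and did not pass with size class in the fit (0.46, adjusted p = 0.081). Peptidoglycan-recognition protein 2 (LOC105185776), a sensor of bacterial cell walls, was at 3.86, 2.64, 4.04 and 2.24 CPM in worker, 4.53, 6.62, 5.56 and 9.70 CPM in gamergate and 10.01, 3.33, 6.27 and 12.4 CPM in revertant brains. Revertants covered the whole gamergate range, and the gene rested on 3 to 67 reads per library. Gamergate over revertant it did not pass (-0.39, adjusted p = 0.46 by edgeR, and 0.53, adjusted p = 0.81, with size class in the fit). Arrestin domain-containing protein 17, psidin and obe did not pass.

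The 17 genes with no known role included 8 annotated as uncharacterized proteins. Among the 17, 4 were higher and 1 lower in gamergate than in revertant brains, beside 27.4% and 29.9% of all genes. With size class in the fit 0 passed, beside 0.448% of all genes called higher and 0.35% lower. The lower one was LOC105183178, with mean brain levels of 26.99 CPM in workers, 35.1 CPM in gamergates and 43.6 CPM in revertants and a log2 fold change of -0.46 (SE 0.17, adjusted p = 0.041 by edgeR). It did not pass with size class in the fit (-0.26, adjusted p = 0.73), with library sizes alone as scaling, or when any single gamergate brain or revertant 1 or 4 was left out. Its ovary means were 17.3, 2.90 and 11.4 CPM in the same order.

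**Figure D4:**
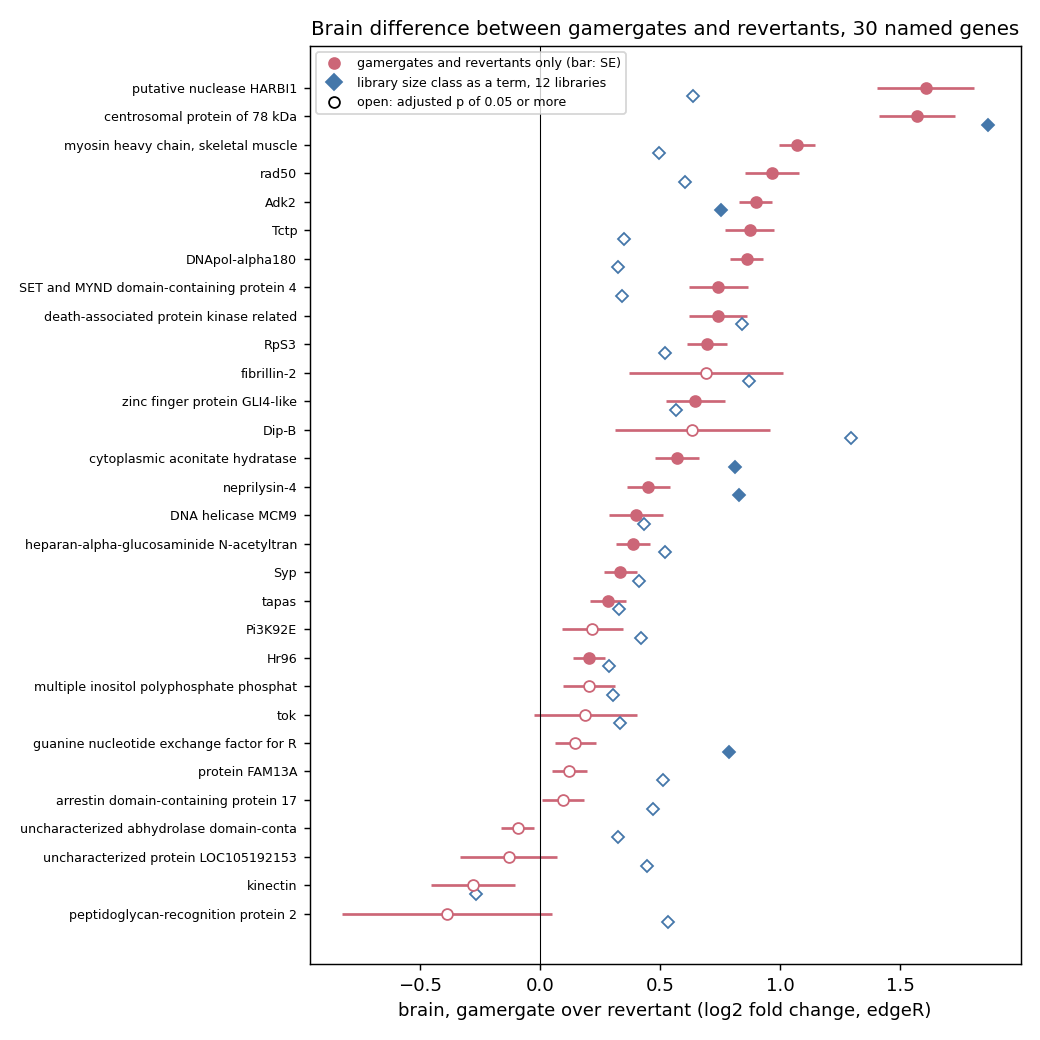
Brain log2 fold change of gamergates over revertants (x axis, edgeR) for 30 named genes. Circles with SE bars are the fit of the 8 gamergate and revertant libraries, diamonds the fit of 12 libraries with size class as a term, and filled symbols passed an adjusted p under 0.05. Most diamonds stay right of 0, but 5 of 30 are filled, and for HARBI1, myosin heavy chain, DNApol-alpha180 and Tctp they lie far to the left of the circles. The diamonds draw on the worker brains, which the rule used.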

How the data were processed

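The authors isolated polyA RNA, built dUTP libraries, trimmed reads with Trimmomatic, aligned them with STAR (2.5.3a in the submitters' processing notes) and deposited raw counts of reads per gene, one table per tissue. The counting program, its use of strand and its handling of multiply aligned reads are not given in the sources used here, so counts of overlapping or near-identical genes are uncertain. Library columns were matched by name, and none was left over. CPM were computed from the deposited counts. Pairs of castes were fitted with edgeR 4.0.16 in R 4.3.3 (filterByExpr, TMM, quasi-likelihood test, Benjamini-Hochberg over all genes tested), and the fits were tested on simulated data. DESeq2 1.42.0, other scalings and filters, a replicate block, a library size term (limit 3500000 counts) and leaving out single libraries were alternatives. Standard errors were derived from each fold change and its F statistic. Protein names came from the study's supplementary annotation (3328 of 12654 genes, so the lists are incomplete and lean on genes that the study ranked) and symbols from RefSeq (Hsal_v8.6), which holds all 70 genes. The 30 named genes were the 12 with the largest smaller gap, up to 2 per list and then further named proteins in order of the gap; others were named after their values were seen. Roles were assigned by hand from the names. The members and lists were chosen with earlier results of these data known. Each library held 1 tissue of 1 ant.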

Additional observations from a re-analysis of the deposited data

Results flagged for a closer look

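Among 66 groups of 4 libraries (11 genes in 3 castes and 2 tissues), 4 held 1 library far from the other 3, by Dixon's ratio of gap to range at the 95% level. Chance flags about 1 in 20 groups. Death-associated protein kinase related was at 2.99 CPM in ovary gamergate 2, below the other gamergate ovaries at 4.18 to 4.37 CPM. Myosin heavy chain was at 77.9 CPM in brain revertant 2, below the other revertants at 84.3 to 85.4 CPM, and at 82.1 CPM in ovary gamergate 4, above the other gamergates at 75.8 to 76.5 CPM. DNApol-alpha180 was at 205 CPM in ovary worker 3, below the other workers at 358 to 385 CPM. Worker 3 was the deepest worker ovary library.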

How the results depend on the processing

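The number of genes meeting the rule was 50 with TMM scaling, 85 and 62 at a mean of at least 1 and 10 CPM, and 70 to 129 without single libraries (129 without brain worker 4, 112 without brain gamergate 4). Chosen after seeing the data, the rule on only the smaller worker brains gave 242 genes and on only the larger ones 453. Calls between gamergate and revertant brains fell from 34 to 5 with the size term (all genes called higher, from 27.4% to 0.448%), while the median log2 fold change of the 70 went from 0.21 to 0.43. They were 49 with library sizes alone (38.7% of all genes called higher), which moved the median of all genes by 0.17. Without single libraries they were 32 to 40 (25.1% to 28.8% of all genes called higher). For gamergate against worker brains, a contrast the rule used, 4 members were called (0.33% of all genes called higher). Calls became 15 with DESeq2 (0.949%) and 11 in a fit of all 3 castes (1.3%). With the size term they were 13 (1.36%), and with only the smaller libraries 20 (2.51%). Without single libraries they were 13 without worker 4 (3.53%) and 4 without worker 2 (0.314%). When any other brain was left out there was 1 call (0.116% to 0.198%). All these calls were higher in gamergates, and nothing is read from them. Ovary calls against gamergates ranged over 57 to 63 (workers) and 57 to 64 (revertants) without single libraries. The shares of all genes called lower in gamergates were 25.4% to 33% (workers) and 24.6% to 30.2% (revertants). With the size term the median ovary log2 fold change of gamergates was -0.81 against workers and -0.86 against revertants, from -0.96 and -0.97. DESeq2 called 2 genes between revertant and worker brains, Adk2 (-0.39) and kinectin (0.76), beside 0.119% of all genes lower and 0.365% higher. Between ovaries it called 1, fibrillin-2 (-1.55), as did the size term (-1.28). The shares of all genes called lower there were 0.0921% and 0.304%. Single omissions left 0 calls (0 to 0) in both tissues.

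Correlations between same-number libraries of 2 castes in a tissue were not all over 0.1 in any comparison. Between revertant and worker ovaries they were 0.26, -0.18, 0.49 and 0.42 for replicates 1 to 4. Whether libraries of the same number shared a colony or a batch cannot be told from this. A replicate block left 1 call between gamergate and worker brains (0.224% of all genes called higher). Between gamergate and revertant brains it left 36 calls, 34 higher and 2 lower (26.7% and 29.8% of all genes). Library size and caste cannot be told apart between gamergate and revertant brains except through the workers, whose brains the rule used. The causes of these shifts were not tested.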
